A study of Mus musculus with 4 samples.

Results

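The genes described here are the constant genes that give an antibody chain its class. Their members were chosen by name, as the gene symbols Ighm, Ighd, Ighg1, Ighg2b, Ighg2c, Ighg3, Igha, Ighe, Igkc and Iglc2 in the deposited count tables. All 10 names were found among the 55291 genes listed, 8 of them heavy chain genes and 2 of them light chain genes. The data are 4 RNA sequencing libraries of mouse pancreas. Of these, 2 came from Pdx1-Cre+, poh1f/f mice, labelled knockout here, and 2 from Pdx1-Cre+, poh1f/+ mice, labelled control. The design asks what depletion of poh1, also called Psmd14, a deubiquitinase of the proteasome lid, does to pancreatic gene expression. Both groups carried the Pdx1-Cre transgene, and the control kept 1 floxed copy of poh1. The Pdx1 promoter is active in the epithelial precursors of the pancreas, from which B lymphocytes do not derive. The sources used here do not give strain, age, sex or whether each library came from its own animal. The p-values therefore measure only how far these samples spread, and that spread may be technical.

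RNA of the targeted gene was no lower under the knockout label. Psmd14, on chromosome 2 at chr2:61711694-61800376 of GRCm38, had 65.9 and 65.2 CPM (counts scaled to a library of 1000000) in the libraries labelled knockout, against 61.6 and 52.9 CPM in control libraries. The log2 fold change was 0.20 ± 0.11 (SE), with an adjusted p of 0.259 in edgeR's quasi-likelihood test, and the groups did not overlap. The sources used here do not say which exons are floxed. The libraries are therefore called by their labels throughout.

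Library totals were 27470926 and 27849730 counts in the libraries labelled knockout and 22875618 and 24635792 counts in control libraries, so that 1 count stood for 0.0342 to 0.0455 CPM. Among 19134 genes tested, 2320 were called higher and 1904 lower, or 2827 higher and 1527 lower with no scaling beyond the library total. Without control replicate 1, 702 were called higher and 424 lower, and without control replicate 2, 1137 were called lower. Pancreatic markers were present but differed widely. The 10 acinar genes summed to 213 and 674 CPM in the libraries labelled knockout, against 12538 and 2629 CPM in control libraries. The 6 duct genes summed to 302 and 329 CPM, against 1206 and 1048 CPM in control libraries, and the 6 islet genes to 408 and 126 CPM, against 1597 and 906 CPM in control libraries. Knockout replicate 2 stood apart in 12 enterocyte genes, which summed to 13.1 and 721 CPM in knockout replicates 1 and 2, against 26.4 and 35.9 CPM in control libraries. Alpi, Sis and Cdx2 were at 0 in every library except that one.

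Every B lymphocyte makes an antibody from a heavy and a light chain, and the constant gene that is joined to the variable segment sets the class of the molecule. Naive B cells make IgM and IgD from one long transcript, and after stimulation the locus is cut and rejoined so that a downstream constant gene, for IgG, IgE or IgA, takes the place of Ighm. Plasma cells then secrete the antibody in large amounts, and the healthy pancreas holds few of either cell.

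The stretches of RNA that tell these classes apart bear directly on whether the counts can be read gene by gene. The hinge exons of the 4 IgG subclasses are shown first, since they separate genes that are otherwise alike. They are from the GENCODE M21 transcripts on GRCm38, minus strand of chromosome 12, written 5′ to 3′, with in-frame cysteine codons in capitals. The hinge lies at chr12:113360529-113360576 for Ighg3, chr12:113329844-113329882 for Ighg1, chr12:113307261-113307326 for Ighg2b and chr12:113288263-113288325 for Ighg2c.
Ighg3: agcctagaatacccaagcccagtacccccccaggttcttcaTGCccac
Ighg1: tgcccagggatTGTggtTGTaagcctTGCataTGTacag
Ighg2b: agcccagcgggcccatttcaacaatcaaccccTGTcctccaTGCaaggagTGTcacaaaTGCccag
Ighg2c: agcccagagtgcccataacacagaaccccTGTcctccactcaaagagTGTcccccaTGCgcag
These exons hold 1 cysteine codon in Ighg3, 4 each in Ighg1 and Ighg2b, and 3 in Ighg2c. The closest pair was Ighg2b and Ighg2c, identical at 77.3% of aligned hinge bases and 85.7% of aligned secreted coding bases. The other IgG pairs were identical at 74.1% to 76.3% of coding bases.

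IgM and IgA are the classes that the J chain joins into polymers, through a cysteine near the end of the secreted tail. The tails are shown because Jchain RNA is set beside these genes in the results. They lie at chr12:113420870-113420928 for Ighm and chr12:113258771-113258829 for Igha, also on the minus strand, and the capitals mark the penultimate cysteine codon.
Ighm: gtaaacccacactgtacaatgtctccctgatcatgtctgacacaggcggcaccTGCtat
Igha: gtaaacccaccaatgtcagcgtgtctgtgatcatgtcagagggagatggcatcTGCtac

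A read of 50 bases from the exons could have come from another annotated gene at 5.49% of its possible positions in Ighg2c, 4.15% in Ighg2b, 1.58% in Ighg3, 0.393% in Ighg1 and 7.65% in Iglc2. No position in any of the 10 genes was shared at 100 bases. The sources used here give neither the read length nor the strand setting, nor how multiply matching reads were counted, so IgG2b and IgG2c counts, and Iglc2 and Iglc3 counts, are uncertain to that extent. Ighg2c is the allele of the reference assembly's strain, and how reads of another strain would fall is not known here. Iglc2 shares 38 of its 612 exonic bases with Iglj2, a joining segment on the same strand that had 0 counts in every library. The noncoding gene Gm30211 spans Igkc on the same strand and shares 0 exonic bases with it.

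**Figure D1:**
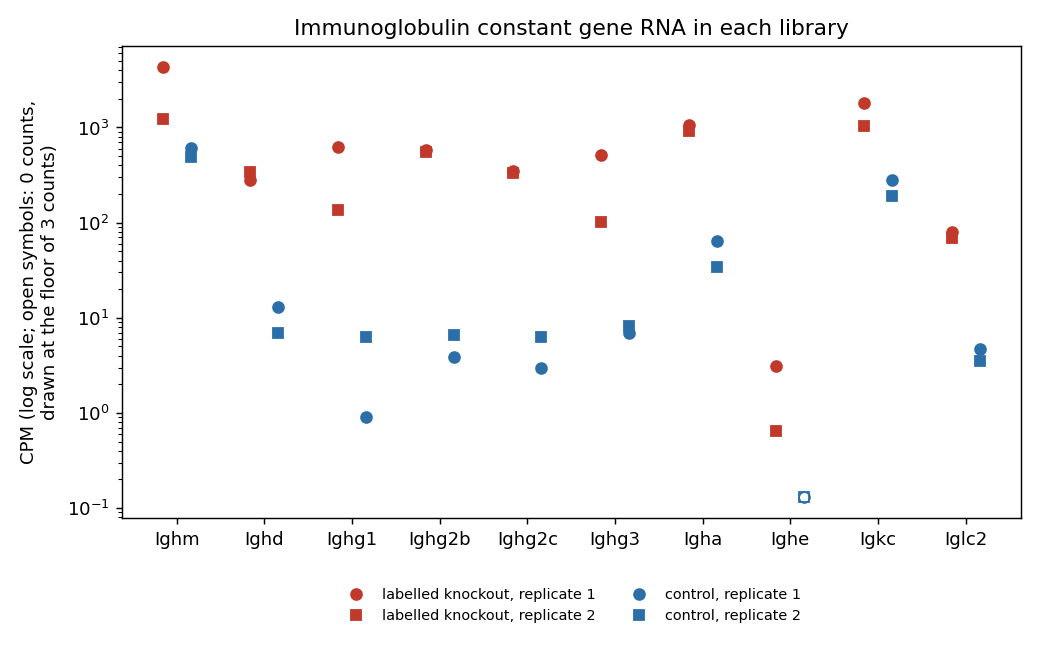
CPM (log scale) of the 10 constant genes, with 1 symbol per library, labelled knockout left of control for each gene. Both libraries labelled knockout lie above both control libraries for every gene. Open symbols mark Ighe in the control libraries, with 0 counts, drawn at the floor of 3 counts.

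RNA of antibody constant genes was higher in the libraries labelled knockout for 8 of the 9 genes with counts in every library, and Ighm missed the threshold. The tenth, Ighe, had no counts in control libraries and passed the low-count filter only through the libraries labelled knockout, so its call is not counted here. Of all genes tested, 12.1% were called higher and 9.95% lower at an adjusted p under 0.05 (edgeR), and no member was called lower by edgeR, DESeq2 or limma-voom. Without control replicate 1 or control replicate 2, 5 members were called higher. In these 9 genes both libraries labelled knockout were above both control libraries, which held for 34.4% of all genes tested. The median log2 fold change of those 9 genes was 4.95, or 4.64 over all members with Ighe at its lower bound, beside -0.0018 over all genes tested. All members together took 0.975% and 0.495% of counts in the libraries labelled knockout, against 0.0956% and 0.0732% in control libraries. In pancreas as a whole, more B-lineage cells and more antibody RNA per cell cannot be told apart.

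Ighm, the μ chain of IgM and the first class every B cell makes, lies at chr12:113418558-113422730. It had 4278 and 1228 CPM in the libraries labelled knockout, against 614 and 492 CPM in control libraries. The 2 libraries labelled knockout lay far from each other, and the groups did not overlap. The log2 fold change was 2.32 ± 0.60 (SE), with an adjusted p of 0.0505 (edgeR). The gene was called without knockout replicate 1, at a log2 fold change of 1.15 and an adjusted p of 0.00509, and without knockout replicate 2, at 2.95 and an adjusted p of 6.99e-07. With all 4 libraries, Ighm was called with no scaling beyond the library total (adjusted p = 0.0417), with no low-count filter (adjusted p = 0.0396) and by DESeq2 (adjusted p = 0.0186).

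Ighd, the δ chain that naive B cells carry beside μ, lies at chr12:113406604-113416324. Its level was 280 and 340 CPM in the libraries labelled knockout, against 13.1 and 6.99 CPM in control libraries. Unlike Ighm, it was alike in both libraries labelled knockout, and slightly lower in the one with more Ighm. The log2 fold change was 4.95 ± 0.35, with an adjusted p of 0.00273 (edgeR). Ighm counts per Ighd count were 15.3 and 3.61 in the libraries labelled knockout, against 46.9 and 70.4 in control libraries.

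The 4 IgG subclass genes fell into 2 patterns. Ighg2b, at chr12:113302965-113307933, had 584 and 554 CPM in the libraries labelled knockout, against 3.91 and 6.61 CPM in control libraries. Ighg2c, at chr12:113285325-113288932, had 351 and 335 CPM, against 3.0 and 6.36 CPM in control libraries. Both were close to equal in the 2 libraries labelled knockout, with log2 fold changes of 6.75 ± 0.31 (adjusted p = 0.00164, edgeR) for Ighg2b and 6.19 ± 0.39 (adjusted p = 0.00221) for Ighg2c. IgG2b and IgG2c are the mouse subclasses that bind activating Fc receptors and complement most readily.

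Ighg1 and Ighg3 instead differed several-fold between the libraries labelled knockout, both being higher in replicate 1. Ighg1, the subclass that IL-4 directs, lies at chr12:113325240-113330523 and had 630 and 137 CPM in the libraries labelled knockout, against 0.910 and 6.27 CPM in control libraries. Ighg3, the subclass typical of responses to polysaccharides, lies at chr12:113356224-113361232 and had 518 and 102 CPM, against 7.0 and 8.28 CPM in control libraries. Neither gene's groups overlapped. Ighg1 had a log2 fold change of 6.72 ± 1.21 (adjusted p = 0.0207, edgeR) and Ighg3 of 5.34 ± 0.87 (adjusted p = 0.0167). Ighg1 lost its call without control replicate 1 (5.93, adjusted p = 0.108) and without control replicate 2 (8.71, adjusted p = 0.0624), and Ighg3 likewise (5.22, adjusted p = 0.132, and 5.46, adjusted p = 0.0996).

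Igha, the α chain of IgA, the class secreted onto mucosal surfaces, lies at chr12:113254830-113260236. Its level was 1061 and 918 CPM in the libraries labelled knockout, against 64.3 and 33.9 CPM in control libraries. Its CPM was alike in both libraries labelled knockout, but its share of heavy constant counts was 13.8% in replicate 1 and 25.4% in replicate 2. The heavy constant sum under that share was 7706 CPM in replicate 1 and 3615 CPM in replicate 2. The shares of Ighd, Ighg2b and Ighg2c were also larger in replicate 2. The 12 enterocyte genes summed to 13.1 CPM in replicate 1 and 721 CPM in replicate 2. The part of gut tissue in the Igha values was not tested. The log2 fold change of Igha was 4.33 ± 0.36, with an adjusted p of 0.0039 (edgeR).

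Ighe, the ε chain that arms mast cells, was the scarcest member and lies at chr12:113269260-113273248. It had 88 and 19 counts in the libraries labelled knockout, which are 3.15 and 0.650 CPM, against 0 counts in both control libraries. At these depths 0 counts allow up to 3 counts per library, or 0.136 and 0.125 CPM, a floor that covers counting error only. The mean of the libraries labelled knockout was thus at least 14.5-fold higher, and at least 24.1-fold and 4.97-fold higher for replicates 1 and 2 taken singly.

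Light chain RNA was higher as well. Igkc, the κ constant gene that most mouse antibodies use, lies on chromosome 6 at chr6:70726435-70726966 and had 1806 and 1037 CPM in the libraries labelled knockout, against 284 and 190 CPM in control libraries. Its log2 fold change of 2.58 ± 0.35 (adjusted p = 0.0112, edgeR) lost the call without control replicate 1 (2.90, adjusted p = 0.0642) and without control replicate 2 (2.32, adjusted p = 0.0589). Iglc2, a λ constant gene, lies on chromosome 16 at chr16:19198396-19200351 and had 79.2 and 69.6 CPM, against 4.68 and 3.51 CPM in control libraries. It had the smallest standard error of the members, with a log2 fold change of 4.18 ± 0.19 (adjusted p = 0.00164). The other λ constant genes were also called higher, Iglc1 at 89.8 and 51.5 CPM against 6.46 and 5.44 CPM in control libraries, and Iglc3 at 27.0 and 20.1 CPM against 3.05 and 0.920 CPM. Iglc1 had an adjusted p of 0.0044 (edgeR), which was 0.0520 without control replicate 1, and Iglc3 one of 0.0153. Iglc4, a constant gene too low to test, had 14 and 9 counts in the libraries labelled knockout and 0 in both control libraries.

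**Figure D2:**
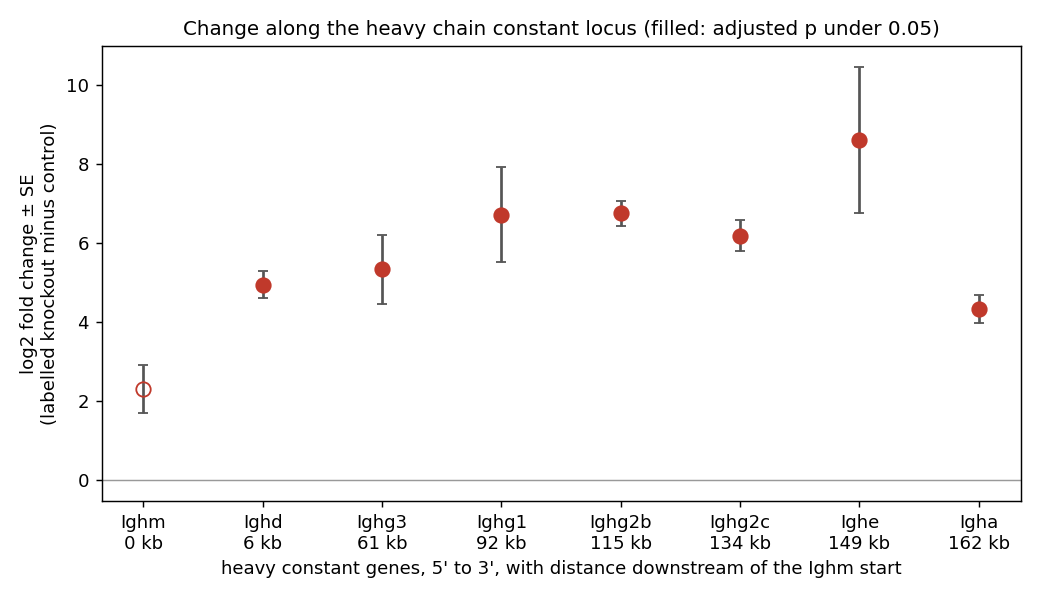
Log2 fold change ± SE of the 8 heavy chain genes, labelled knockout minus control, in their 5′ to 3′ order along the locus with the distance from the Ighm start in kb. Ighm is lowest at 2.32 and unfilled because it missed the threshold, and the IgG genes lie between 5.34 and 6.75. The value for Ighe depends on the prior count, since its control libraries were at 0.

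Along the locus, the change was smallest at Ighm, at the 5′ end. Ighd, 6.41 kb downstream of the Ighm start, changed by 4.95 on the log2 scale, and the 4 IgG genes, 61.5 to 134 kb downstream, by 5.34 to 6.75. Igha, the last gene at 162 kb, changed by 4.33. The interval of 1 standard error around Ighg1 overlapped that of each other IgG gene, and differences in fold change between members were not tested.

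Levels per kilobase divide CPM by the length of all annotated exons, so the order of the genes depends on the annotation. That length is 1326 bases for Ighg2c and 2678 bases for Ighg2b, whose secreted coding sequences have 1004 and 1007 bases. By mean CPM, Ighg2b was instead above Ighg2c, at 569 against 343 in the libraries labelled knockout and 5.26 against 4.68 in control libraries. In the libraries labelled knockout, the mean CPM per kb was 2672 ± 1022 for Igkc and 1460 ± 1143 for Ighm (SD, n = 2). Igha followed at 371 ± 37.9, Ighg2c at 259 ± 9.01, Ighg2b at 213 ± 7.95 and Ighd at 163 ± 22.2. Below these stood Ighg1 at 148 ± 134, Ighg3 at 123 ± 117, Iglc2 at 122 ± 11.1 and Ighe at 1.20 ± 1.12. Library values overlapped between the neighbours Igkc and Ighm and at each step from Ighd through Iglc2. The other neighbours did not overlap, although the SD of Ighm spanned its gap to Igha.

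Control libraries had the same 3 genes on top. Their mean CPM per kb was 445 ± 124 for Igkc, 293 ± 45.7 for Ighm and 18.4 ± 8.04 for Igha (SD, n = 2). Iglc2 came next at 6.70 ± 1.35, then Ighd at 5.29 ± 2.28, Ighg2c at 3.53 ± 1.79 and Ighg3 at 3.04 ± 0.36. Ighg2b had 1.96 ± 0.712 and Ighg1 1.39 ± 1.46. Library values overlapped at each step from Iglc2 through Ighg3, and between Ighg2b and Ighg1, and at no other step. Ighe was at 0.

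**Figure D3:**
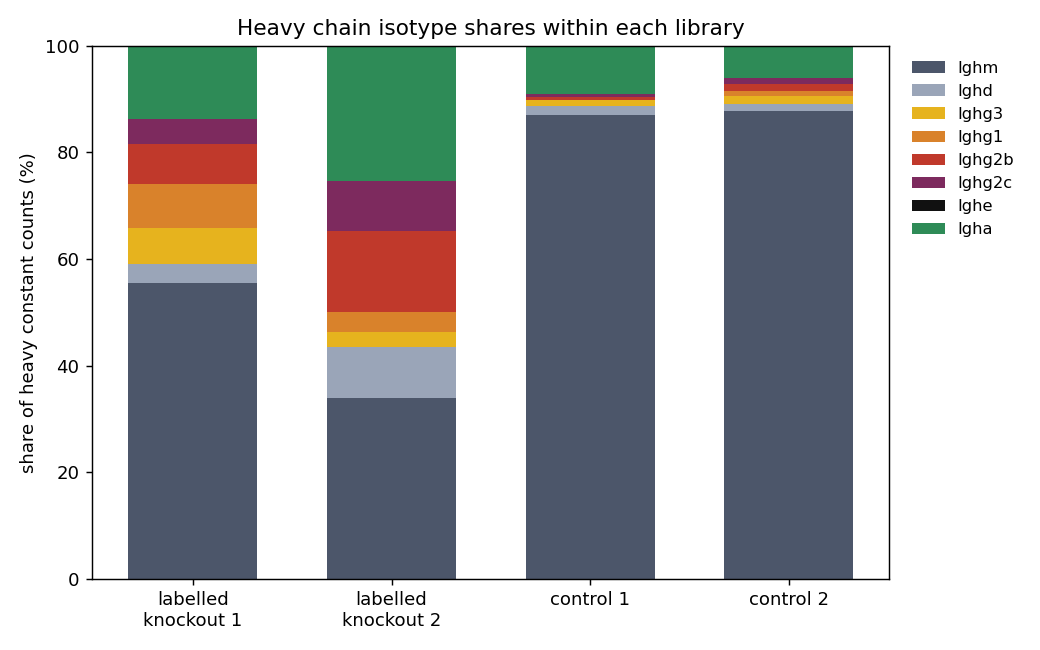
Share of each heavy chain isotype in the summed heavy constant counts (%) in each of the 4 libraries, those labelled knockout first. Ighm takes 55.5% and 34.0% in the libraries labelled knockout, against 86.9% and 87.8% in control libraries.

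The makeup of the heavy chain pool did not overlap between the groups for any heavy gene other than Ighe. Ighm had the smaller share and Ighd, the IgG genes and Igha the larger one in the libraries labelled knockout. The shares of a library sum to a fixed total, so a smaller Ighm share goes with larger shares elsewhere. The genes are therefore not separate results here. By CPM, 34.4% of all genes tested had both libraries labelled knockout above both control libraries, and 33.7% had both below. The 8 heavy genes together had 215131 and 105587 counts in the libraries labelled knockout, against 15523 and 13396 counts in control libraries. As a level, this was 7706 and 3615 CPM, against 706 and 560 CPM in control libraries, a ratio of group means of 8.94, or 3.16 on the log2 scale and 2.51 without knockout replicate 1. With 2 libraries against 2, a 2-sided exact permutation test cannot go below p = 0.33, and each sum and share of this and the next 2 paragraphs whose groups did not overlap had that p.

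Ighm made up 55.5% and 34.0% of heavy constant counts in the libraries labelled knockout, against 86.9% and 87.8% in control libraries. The class-switched genes, for IgG, IgA and IgE together, made up 40.8% and 56.6%, against 11.2% and 11% in control libraries. The control libraries were close to each other, those labelled knockout farther apart, and the groups did not overlap. All IgG genes held 27.0% and 31.2% in the libraries labelled knockout, against 2.10% and 4.91% in control libraries. Igha held 13.8% and 25.4%, against 9.10% and 6.05% in control libraries, and Ighd 3.64% and 9.41%, against 1.86% and 1.25%. These shares did not overlap between the groups either. The exact binomial 95% intervals of single shares were at most 1.12 points wide and cover counting error only, so the gap between the libraries labelled knockout exceeds counting error.

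Single IgG subclasses differed more unevenly. Ighg2b was 7.58% and 15.3% of heavy constant counts in the libraries labelled knockout, against 0.554% and 1.18% in control libraries, and Ighg2c 4.56% and 9.26%, against 0.425% and 1.13%. Ighg1 was 8.17% and 3.80%, against 0.129% and 1.12%, and Ighg3 6.73% and 2.81%, against 0.992% and 1.48% in control libraries. Replicate 1 of the libraries labelled knockout thus had the larger Ighg1 and Ighg3 shares and replicate 2 the larger Ighg2b and Ighg2c shares. Ighe was 0.0409% and 0.0180% in the libraries labelled knockout and 0 in control libraries, where 3 counts would be 0.0193% and 0.0224%, so a difference from knockout replicate 2 was not detectable at this depth. Divided by exon length, the switched share was 35.5% and 51.9% in the libraries labelled knockout, against 8.52% and 8.85% in control libraries.

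Among the switched counts alone, a view added after the values were seen, IgA and IgG changed places. Igha was 33.7% and 44.9% of switched counts in the libraries labelled knockout, against 81.3% and 55.2% in control libraries, and IgG 66.2% and 55.1%, against 18.7% and 44.8%. These did not overlap between groups, but the 2 control libraries differed widely. Within switched counts the Ighg1 share overlapped between groups, at 20.0% and 6.72% against 1.15% and 10.2% in control libraries. The Ighg3 share overlapped too, at 16.5% and 4.97% against 8.86% and 13.5%. Ighg2b did not, at 18.6% and 27.1% against 4.95% and 10.8% in control libraries.

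Within light chains the κ share was lower. Igkc made up 90.2% and 88.0% of κ and λ constant counts in the libraries labelled knockout, against 95.2% and 95.1% in control libraries, counting Iglc1, Iglc2 and Iglc3 as λ. The groups did not overlap, and the difference of means was -6.04 points (exact permutation p = 0.33). Iglc2 alone was 40.4% and 49.3% of λ constant counts, against 33.0% and 35.6% in control libraries. Iglc2 and Iglc3 are identical at 96.2% of aligned coding bases, so how their reads were divided is uncertain.

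**Figure D4:**
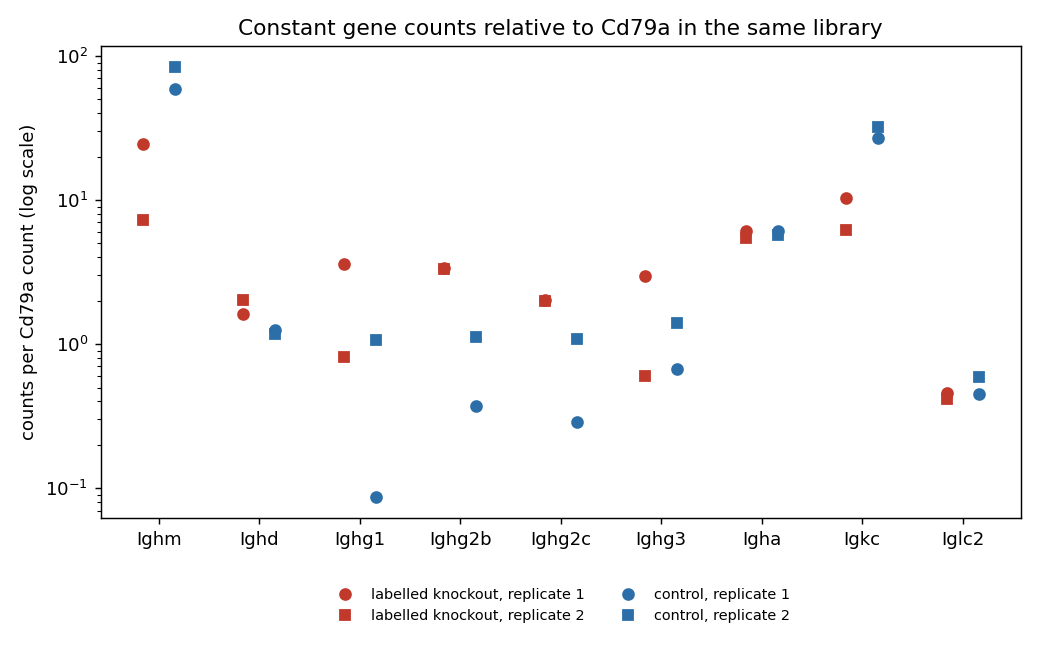
Counts of 9 constant genes per count of Cd79a in the same library (log scale), labelled knockout left of control. Igha lies at 6.11 and 5.47 in the libraries labelled knockout, against 6.14 and 5.75 in control libraries, while Ighm and Igkc lie lower and Ighg2b and Ighg2c higher in the libraries labelled knockout. Ighe is left out because of its 0 counts.

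B cell genes were higher too, and relative to them the members parted into groups. Cd79a, a signalling chain of the B cell receptor found on B cells of every class, had 174 and 168 CPM in the libraries labelled knockout, against 10.5 and 5.90 CPM in control libraries. Per Cd79a count, Ighm was 24.6 and 7.32 in the libraries labelled knockout, against 58.7 and 83.4 in control libraries, and Igkc 10.4 and 6.18, against 27.1 and 32.3. Both were lower without overlap. Igha overlapped, at 6.11 and 5.47 against 6.14 and 5.75 in control libraries, and so did Iglc2, at 0.456 and 0.415 against 0.448 and 0.596. Ighd was 1.61 and 2.03, against 1.25 and 1.18 in control libraries. Ighg2b, at 3.36 and 3.30 against 0.374 and 1.12, and Ighg2c, at 2.02 and 1.99 against 0.287 and 1.08, were higher without overlap. Ighg1, at 3.62 and 0.819 against 0.0870 and 1.06, and Ighg3, at 2.98 and 0.606 against 0.670 and 1.40, overlapped.

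The heavy chain sum depended on the B cell measure it was set against. Per Cd79a count it was 44.3 and 21.5 in the libraries labelled knockout, against 67.5 and 95.0 in control libraries. Per count of all 16 B cell genes it was 3.55 and 1.71, against 2.13 in each control library, so the groups overlapped. Variable gene counts were also higher, at 52356 and 24961 for heavy V genes in the libraries labelled knockout, against 1611 and 1570 in control libraries. Heavy constant counts per heavy V count were 4.11 and 4.23, against 9.64 and 8.53 in control libraries. Igkc counts per κ V count were 0.517 and 0.652, against 1.21 and 0.991 in control libraries. The λ ratio went the other way. Iglc1, Iglc2 and Iglc3 counts per λ V count were 0.731 and 0.800, against 0.646 and 0.555 in control libraries.

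**Figure D5:**
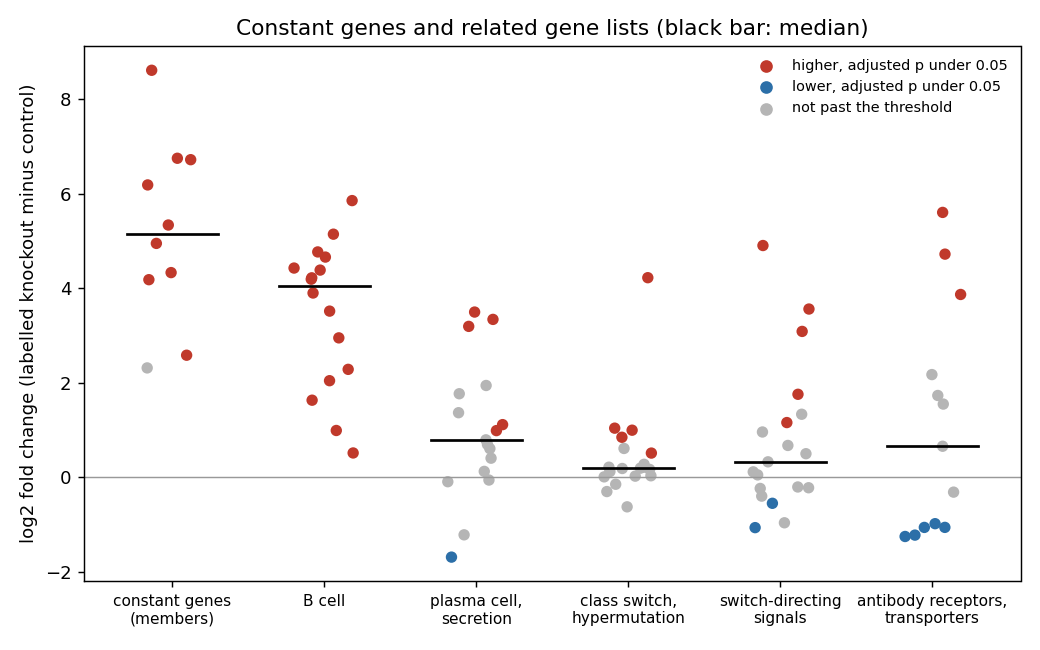
Log2 fold change, labelled knockout minus control, of each tested gene of 6 groups, with the median of each group as a black bar. The constant genes have a median of 5.15, which counts the fitted value of Ighe, and the B cell genes of 4.05. The plasma cell (0.79), class switch (0.20), signal (0.33) and antibody receptor (0.66) lists have medians nearer 0.

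Genes that B cells express were called higher in 16 of 16, beside 12.1% of all genes tested, with a median log2 fold change of 4.05. Bank1, an adaptor of B cell receptor signalling, had 93.6 and 103 CPM in the libraries labelled knockout, against 5.91 and 4.64 CPM in control libraries (log2 fold change 4.22 ± 0.16, adjusted p = 0.00153, edgeR). Spib, a transcription factor of B cells and plasmacytoid dendritic cells, had 145 and 141 CPM, against 7.69 and 5.61 CPM in control libraries, and the kinase gene Blk 59.1 and 57.2 CPM, against 3.68 and 2.68 CPM. Each was nearly equal in the 2 libraries labelled knockout, but naming genes by smallest p favours those alike within a group. All 16 genes summed to 2172 and 2118 CPM in the libraries labelled knockout. Pou2af1 of the same list, named after its values were seen, was less alike there, at 176 and 97.4 CPM. Of 6 genes of B cell precursors, 2 could be tested and Vpreb3 was called higher, at 5.01 and 6.40 CPM against 0.409 and 0.544 CPM in control libraries (adjusted p = 0.00561, edgeR).

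Plasma cell and secretion genes moved unevenly. Of 17, 5 were called higher and 1 lower, beside 12.1% and 9.95% of all genes tested. The list's median log2 fold change was 0.79, and which cells of the pancreas the RNA of the list came from was not tested. Jchain, the chain that joins IgM and IgA polymers, had 924 and 508 CPM in the libraries labelled knockout, against 72.2 and 54.5 CPM in control libraries. Its log2 fold change of 3.50 ± 0.35 (adjusted p = 0.00575, edgeR) lost the call without control replicate 1 (adjusted p = 0.0550). Irf4, a factor needed for both switching and plasma cells, had 105 and 114 CPM, against 10.9 and 13.0 CPM in control libraries (3.20 ± 0.13, adjusted p = 0.00153). The surface receptor gene Slamf7 rose less, with 52.1 and 54.3 CPM, against 28.6 and 25.0 CPM (0.99 ± 0.12, adjusted p = 0.00897). Mzb1, a chaperone of antibody assembly, and Tnfrsf13b, a receptor for the survival factors BAFF and APRIL, completed the 5 (log2 fold changes 3.34 and 1.12), and are named after their values were seen. Both lost the call without either control library, at an adjusted p of 0.130 without replicate 1 and 0.118 without replicate 2 for Mzb1, and of 0.0652 and 0.0584 for Tnfrsf13b. Mzb1 was also not called by limma-voom (adjusted p = 0.0813).

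Sdc1, which marks plasma cells but is also made by epithelia, was lower, at 99.7 and 72.6 CPM in the libraries labelled knockout, against 257 and 298 CPM in control libraries (-1.69 ± 0.19, adjusted p = 0.00763, edgeR). The plasma cell regulators Prdm1, at 21.3 and 16.8 CPM against 20.3 and 19.3 CPM in control libraries, and Xbp1, at 318 and 254 CPM against 334 and 276 CPM, were not called and overlapped between groups. Both are named after their values were seen, and which cells of the pancreas their RNA came from was not tested. The count of this list was 11 higher without knockout replicate 2, 2 without control replicate 1 and 3 without control replicate 2, and 2 were called lower without knockout replicate 1.

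Of 20 genes of class switching and hypermutation, 5 were called higher and 0 lower, beside 12.1% and 9.95% of all genes tested. The list's median log2 fold change was 0.20. The called genes described here act in DNA repair in cells of every kind. Rif1, which protects broken ends, had 67.9 and 70.3 CPM in the libraries labelled knockout, against 36.1 and 40.7 CPM in control libraries (0.85 ± 0.11, adjusted p = 0.00968, edgeR). Prkdc, the kinase of end joining, had 49.0 and 55.9 CPM, against 22.7 and 28.2 CPM (1.04 ± 0.16, adjusted p = 0.0137, or 0.0658 without control replicate 1). Also called were Atm (1.0, adjusted p = 0.0349, or 0.0877 without control replicate 1) and Msh6 (0.51, adjusted p = 0.0259), named after their values were seen. Msh6 lost the call when any 1 library was left out, at adjusted p values of 0.0638 to 0.126, and with a replicate block (0.0545). Without control replicate 1 the list had 1 gene called higher.

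Among 22 genes for signals that direct switching, 19 could be tested. Of these, 5 were called higher and 2 lower, beside 12.1% and 9.95% of all genes tested. The signals are cytokines, the CD40 system and their receptors. Il21r, the IL-21 receptor, had 117 and 115 CPM in the libraries labelled knockout, against 35.9 and 32.8 CPM in control libraries (1.76 ± 0.10, adjusted p = 0.00179, edgeR). Tnfrsf13c, the BAFF receptor, had 46.1 and 42.6 CPM, against 2.05 and 0.920 CPM in control libraries (4.91 ± 0.37, adjusted p = 0.0032). Tbx21, which encodes T-bet, a factor of switching to IgG2c in mice, had 7.24 and 8.49 CPM, against 1.09 and 0.753 CPM (3.09 ± 0.32, adjusted p = 0.00615). Cd40 and its ligand Cd40lg, named after their values were seen, were the other calls, with log2 fold changes of 1.16 and 3.56. Cd40 lost the call without control replicate 1 (adjusted p = 0.0895) and without control replicate 2 (adjusted p = 0.0621), and Cd40lg without control replicate 1 (adjusted p = 0.0548).

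Of the cytokines, 3 are given here. Il4, which directs IgG1 and IgE, had 2.11 and 1.95 CPM in the libraries labelled knockout, against 4.41 and 3.51 CPM in control libraries, and was not called (-0.96, adjusted p = 0.0731, edgeR). Ifng, which directs IgG2c, had 9 and 5 counts, against 0 in both control libraries, and was too low to test. Tgfb1, which directs IgA, had 139 and 155 CPM, against 183 and 163 CPM in control libraries, and was not called (-0.23, adjusted p = 0.219). These cytokines are named after their values were seen. Tgfbr1, a receptor of the signal that directs IgA, was lower, at 136 and 129 CPM against 261 and 291 CPM in control libraries (-1.06 ± 0.12, adjusted p = 0.00727, edgeR). Ifngr2 was lower at 89.1 and 96.5 CPM, against 141 and 131 CPM (-0.55 ± 0.10, adjusted p = 0.0232), and lost the call on leaving out control replicate 1 (0.0800), knockout replicate 1 (0.141) or knockout replicate 2 (0.0748), and with a replicate block (0.0535). The list had 9 genes called higher without knockout replicate 2 and 3 without control replicate 1.

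Of 13 receptors that bind or carry antibody, 3 were called higher and 5 lower, beside 12.1% and 9.95% of all genes tested. The median of the 13 was 0.66, or -0.23 without knockout replicate 2. Without knockout replicate 1, 5 were called higher. Fcer2a and Fcmr are known as B cell surface receptors. Fcer2a, the low-affinity IgE receptor CD23, had 99.8 and 112 CPM in the libraries labelled knockout, against 2.82 and 1.55 CPM in control libraries (5.61 ± 0.29, adjusted p = 0.00175, edgeR). Fcmr, the IgM receptor, had 70.6 and 74.2 CPM, against 3.14 and 2.34 CPM in control libraries (4.72 ± 0.18, adjusted p = 0.00153). Fcamr, a receptor for IgA and IgM, had 8.63 and 9.82 CPM, against 0.409 and 0.837 CPM (3.87 ± 0.40, adjusted p = 0.00633).

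The genes called lower encode receptors known from macrophages and other myeloid cells. Fcgr3 had 162 and 165 CPM in the libraries labelled knockout, against 356 and 326 CPM in control libraries (-1.06 ± 0.12, adjusted p = 0.00716, edgeR). Fcgr4 had 24.6 and 30.0 CPM, against 61.3 and 68.7 CPM (-1.25 ± 0.14, adjusted p = 0.00772), and Fcgr2b, an inhibitory receptor also found on B cells, 284 and 277 CPM, against 561 and 545 CPM in control libraries (-0.98 ± 0.12, adjusted p = 0.00867). Fcgr1 and the shared γ chain gene Fcer1g, named after their values were seen, were the other genes called lower (-1.22 and -1.06). Without control replicate 1, 2 of the 5 kept the call, and Fcgr4 (adjusted p = 0.0504), Fcgr1 (0.0697) and Fcer1g (0.0666) did not. Pigr, the epithelial receptor that carries IgA and IgM into secretions, had 10.9 and 154 CPM, against 14.1 and 22.5 CPM in control libraries, so the groups overlapped. It was not called (2.17 ± 1.14, adjusted p = 0.225). With knockout replicate 1 left out, which leaves the library high in enterocyte genes, its log2 fold change was 3.07.

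Genes of other cell types moved with the constant genes. All 10 T cell genes were called higher, beside 12.1% of all genes tested. They summed to 399 and 453 CPM in the libraries labelled knockout, against 36.9 and 30.0 CPM in control libraries. Cd2 led by p, at 45.5 and 46.2 CPM against 2.64 and 2.43 CPM in control libraries (4.18, adjusted p = 0.00153, edgeR). Genes of lymphoid stroma and high endothelium, which mark lymph nodes and other lymphoid tissue, were called higher in 5 of 7, with sums of 544 and 470 CPM, against 121 and 74.0 CPM in control libraries. Among them Glycam1, a ligand on high endothelial venules, had 36.4 and 39.3 CPM, against 0.455 and 0.335 CPM (6.57 ± 0.22, adjusted p = 0.00153). No gene of these 2 lists was at 0 in any library. Adipocyte genes were called higher in 5 of 6, with sums of 4132 and 3426 CPM, against 692 and 1030 CPM in control libraries. Fabp4, a fatty acid carrier, led that list with 1174 and 874 CPM, against 170 and 299 CPM (2.13, adjusted p = 0.0142, or 0.0534 without control replicate 1).

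Mast cell and basophil genes, whose cells bind IgE, summed to 145 and 77.2 CPM in the libraries labelled knockout. In control libraries they summed to 76.5 and 80.9 CPM. Tpsab1 was the 1 call among 7 tested, beside 12.1% of all genes tested called higher. It had 5.19 and 2.12 CPM, against 0.455 and 0.251 CPM in control libraries (3.36, adjusted p = 0.0227, edgeR), or adjusted p = 0.103 without control replicate 1, 0.104 without control replicate 2 and 0.0540 by limma-voom. Of the 12 enterocyte genes 4 could be tested and none was called by edgeR, where 1 had an unadjusted p under 0.05, while DESeq2 called 1 higher. The part of other tissue, T cells, stroma or fat in the antibody RNA values was not tested.

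Pancreatic genes moved the other way. Duct genes were called lower in 6 of 6, beside 9.95% of all genes tested. They were led by the tight junction gene Cldn4, at 51.8 and 63.6 CPM in the libraries labelled knockout, against 334 and 285 CPM in control libraries (-2.42, adjusted p = 0.00241, edgeR). Islet genes were called lower in 3 of 6, led by the hormone gene Sst at 5.01 and 5.03 CPM, against 37.8 and 20.4 CPM (-2.53, adjusted p = 0.0101). Acinar genes were called lower in 7 of 10, led by the lipase gene Cel at 4.41 and 11.9 CPM, against 1249 and 181 CPM in control libraries (-6.45, adjusted p = 0.0213, or 0.0596 without control replicate 1).

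The genes most like the heavy chain sum across the 4 libraries were sought among 12335 protein-coding genes outside the immunoglobulin loci. Likeness was the distance between centred log2(CPM + 0.5) values, whose median over these genes was 3.23, where 0 is an identical pattern. Jchain was nearest at 0.407, then Mzb1 at 0.511. Timd4, a phosphatidylserine receptor, followed at 0.518, with 40.5 and 27.2 CPM in the libraries labelled knockout, against 2.82 and 2.72 CPM in control libraries. Siglech, a lectin of plasmacytoid dendritic cells, came after it at 0.602, with 34.4 and 28.4 CPM, against 4.14 and 3.30 CPM. All 4 were higher in knockout replicate 1 than in knockout replicate 2, as the heavy chain sum was. Choosing genes by likeness to that sum favours such a shared order, so it is not a separate result.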

How the data were processed

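Libraries were made from total RNA of 4 mouse pancreas samples (Vazyme VAHTS kit, per the labels' protocols). The authors deposited raw counts per gene for each library. The submitters' processing notes name STAR 2.7.6a and featureCounts 2.0.1, the build GRCm38, and FastQC 0.11.9, Trim Galore 0.6.6 and SAMtools 1.7. The sources used here give no annotation release or read length, and reads shared between near-identical genes could be split or dropped in counting. Positions and exon lengths came from GENCODE M21, in which 53292 of the 55291 genes matched.

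Counts of all 4 libraries were fitted on group alone by edgeR 4.0.16 under R 4.3.3 (TMM, quasi-likelihood, filterByExpr at a minimum count of 10), with Benjamini-Hochberg adjustment over 19134 genes and a threshold of 0.05. CPM used TMM-scaled totals of tested genes. Isotype shares were ratios of counts within a library. Alternatives used DESeq2 1.42.0, limma 3.58.1, other scalings, filters and thresholds, a replicate block and left-out libraries. The fit was tested on simulated data.

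The members and gene lists were chosen with earlier results of these data known. All members, Psmd14, Jchain and Pigr were named whatever their result, and 1 gene of the switching list is not reported here. Named besides were, in each direction, the 3 called genes of smallest p from the B cell, plasma cell, switching, signal and receptor lists, and 1 from each other list. The 4 genes nearest the heavy chain sum had a mean of at least 5 CPM.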

Additional observations from a re-analysis of the deposited data

How the results depend on the processing

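With 2 libraries a group, leaving out 1 makes the fit take the lone library's spread from the other group. Of the 255 values recomputed for the main results, 212 kept their direction and their size within the limits set for a change (1.5 times for a count). Genes called higher numbered 2320, or 644 at an adjusted p under 0.01 and 702 to 2338 when 1 library was left out. Genes called lower numbered 1904, or 323 at an adjusted p under 0.01 and 424 to 1696 when 1 library was left out. Members called higher, Ighe included, numbered 9, or 5 at an adjusted p under 0.01 and 5 to 10 when 1 library was left out. At an adjusted p under 0.01 the counts called higher were 3 for the plasma cell list, 2 for the class switch list and 3 for the signal list, and 1 signal gene was called lower. When 1 library was left out, the plasma cell list gave 2 to 11 higher and 1 to 2 lower, the class switch list 1 to 4 higher and 0 to 1 lower, the signal list 3 to 9 higher and 1 to 2 lower, and the receptor list 3 to 5 higher and 2 to 5 lower. DESeq2 called 9 plasma cell genes higher.

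The log2 ratio of the heavy chain sum was 3.16, with 2.51 to 3.61 when 1 library was left out, 0.30 per B cell list count and -1.30 per Cd79a count. The last reversed because Cd79a differed more than the sum. Counted together, Ighg2b and Ighg2c differed by 16.7 points. Per exon length the Ighg2c difference was 9.70 points. Among switched counts alone, the difference was 7.68 points for Ighg1, 15.0 for Ighg2b, -0.45 for Ighg3, -29.0 for Igha, 0.0660 for Ighe and 28.9 for all IgG. The Ighg3 and Igha signs reversed there. When 1 library was left out, the Ighe difference was 0.0180 to 0.0409 points. The κ share difference was -3.53 points with Iglc2 as the λ gene. The medians of the receptor list (0.66) and the enterocyte list (3.33) were -0.23 and -0.25 without knockout replicate 2, and reached 0.98 and 9.20 when other libraries were left out. The causes of the other changes were not tested.

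The replicate block gave 1960 genes higher and 1432 lower, 10 members higher (Ighm with an adjusted p of 0.0301), 9 plasma cell genes higher and 2 lower, and 1 signal gene lower. The deviations of same-numbered libraries correlated at 0.028, so the numbers do not establish a pairing. Of 650 values recomputed for 53 named genes, 42 lost the call, 7 gained it and 0 changed direction. Depth limits Ighe, which had 0 counts in both control libraries.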
